A study of Homo sapiens with 4 samples.

Results

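Ishikawa cells, an established line from a human endometrial cancer, were profiled by ChIP-seq for H3K9me3, trimethylated lysine 9 of histone H3. One condition, NC, carries the treatment label none, and the other, OE-KDM4A, names KDM4A, a demethylase of lysine 9 and lysine 36 of histone H3. Each condition had 1 immunoprecipitated and 1 input library, both labelled with replicate number 2, and 1 peak list per condition was analysed. The labels do not say how OE-KDM4A was introduced, or whether it was a pool or a clone, and they do not state what NC received. The regions described here are the autosomal peaks whose summit, the base of highest signal in the peak, lay within 1 kb of either end of the span of a RefSeq gene. They numbered 136 of the 1107 autosomal peaks in NC and 150 of 3560 in OE-KDM4A, or 286 of the 4950 peaks of both lists with the sex chromosomes included. Since no condition had a second library, the conditions were not tested against each other, and every interval below is an exact 95% interval that covers counting error only.

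H3K9me3 is written by enzymes such as SETDB1 and the SUV39H pair, is bound by HP1 proteins, and is best known from silent chromatin: centromeric repeats, transposons, subtelomeres and the clustered zinc finger genes, where it lies mainly over the 3′ part of the gene. Starts of active genes, most of all those in CpG islands, which are stretches rich in unmethylated CG pairs, usually carry other marks, such as trimethylated lysine 4. Peaks close to gene ends are therefore a minority class for this mark.

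Printed here are the 250 bases before the start for 7 promoters, as most of the stranded members were found near the start. A summit lay in each promoter, taken as the 300 bases from 250 before to 50 after the start. At SAMD4B (30 bp in NC, 31 bp in OE-KDM4A) and ARRDC2 (31 bp) the summit lay after the start, outside the printed bases. The sequences are RefSeq's (GRCh38.p14, the assembly that hg38 names), run 5′ to 3′ on the strand of the gene, and carry in capitals each GGGCGG or its complement CCGCCC, the GC box bound by SP1-type factors. ANKLE2, FBLN1, ECE1 and SAMD4B had a summit in both lists, SENP3 in NC only, and ARRDC2 and FAM230E in OE-KDM4A only.
ANKLE2 (chr12:132761833-132762082, minus strand): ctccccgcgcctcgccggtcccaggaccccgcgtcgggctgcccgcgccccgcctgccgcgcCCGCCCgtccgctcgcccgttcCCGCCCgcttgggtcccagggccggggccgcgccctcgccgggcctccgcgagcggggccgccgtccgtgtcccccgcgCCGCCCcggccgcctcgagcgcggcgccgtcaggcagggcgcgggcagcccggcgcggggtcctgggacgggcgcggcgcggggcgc
FBLN1 (chr22:45502633-45502882, plus strand): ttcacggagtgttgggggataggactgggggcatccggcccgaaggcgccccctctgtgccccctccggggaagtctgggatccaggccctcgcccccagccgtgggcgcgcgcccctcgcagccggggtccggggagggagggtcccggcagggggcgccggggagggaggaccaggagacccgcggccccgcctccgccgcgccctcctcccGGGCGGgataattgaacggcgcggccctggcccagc
ECE1 (chr1:21345505-21345754, minus strand): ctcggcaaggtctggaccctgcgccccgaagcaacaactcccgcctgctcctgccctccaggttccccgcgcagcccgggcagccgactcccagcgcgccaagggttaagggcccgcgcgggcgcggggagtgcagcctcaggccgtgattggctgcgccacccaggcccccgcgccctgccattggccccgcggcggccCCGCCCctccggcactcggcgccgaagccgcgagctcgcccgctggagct
SAMD4B (chr19:39342171-39342420, plus strand): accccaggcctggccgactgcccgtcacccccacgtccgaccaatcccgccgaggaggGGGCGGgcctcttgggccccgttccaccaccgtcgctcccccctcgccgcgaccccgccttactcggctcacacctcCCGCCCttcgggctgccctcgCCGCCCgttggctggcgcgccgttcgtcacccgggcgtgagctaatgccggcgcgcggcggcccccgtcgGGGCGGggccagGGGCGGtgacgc
SENP3 (chr17:7561669-7561918, plus strand): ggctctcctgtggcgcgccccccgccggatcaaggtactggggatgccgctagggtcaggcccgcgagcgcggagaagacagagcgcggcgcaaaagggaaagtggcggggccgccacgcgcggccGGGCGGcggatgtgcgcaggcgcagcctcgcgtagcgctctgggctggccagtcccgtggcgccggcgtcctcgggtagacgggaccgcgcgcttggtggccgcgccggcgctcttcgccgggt
ARRDC2 (chr19:18000874-18001123, plus strand): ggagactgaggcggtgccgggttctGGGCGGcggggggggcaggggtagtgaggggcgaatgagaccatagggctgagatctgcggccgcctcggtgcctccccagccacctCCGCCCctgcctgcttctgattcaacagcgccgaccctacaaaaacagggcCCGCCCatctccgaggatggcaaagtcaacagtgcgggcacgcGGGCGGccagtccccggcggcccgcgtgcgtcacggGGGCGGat
FAM230E (chr22:18733685-18733934, plus strand): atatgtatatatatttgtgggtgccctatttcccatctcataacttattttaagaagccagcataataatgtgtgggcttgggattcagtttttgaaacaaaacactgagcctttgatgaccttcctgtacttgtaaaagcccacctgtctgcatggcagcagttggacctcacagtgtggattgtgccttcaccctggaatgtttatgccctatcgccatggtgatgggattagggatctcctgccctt
The first 6 are GC-rich and hold between 1 (FBLN1, ECE1 and SENP3) and 5 (SAMD4B and ARRDC2) GC boxes. FAM230E, a lncRNA gene of a family with several copies on chromosome 22, has none, and its 300-base promoter has a GC content of 44.3% with 1 CG pair. The ANKLE2 promoter has the highest GC content of these, 87.0%, with 61 CG pairs.

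Peaks near gene ends made up a larger share of the NC list than of the OE-KDM4A list, while their absolute numbers were close. The NC share was 12.3% (10.4 to 14.4), the OE-KDM4A share 4.21% (3.58 to 4.93), and 6.24% of autosomal bases lie within 1 kb of a gene end. Expressed as density, NC had 0.759 such peaks per Mb of near-end sequence (0.637 to 0.897) and OE-KDM4A 0.837 (0.708 to 0.982), which overlap. What differed was the rest of the list: over all autosomal sequence NC had 0.385 peaks per Mb and OE-KDM4A 1.24. Relative to its own list, the near-end density was thus 1.97 times the autosomal density in NC and 0.676 times in OE-KDM4A.

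The same counts were taken outside the longest gene-free stretch of each chromosome and its 5 Mb flanks, a region that holds the centromere on most chromosomes. Of the NC peaks there, 125 of 606 (20.6%, 17.5 to 24.1) lay near a gene end, and of the OE-KDM4A peaks 139 of 2262 (6.15%, 5.19 to 7.21), against 6.50% of bases. The near-end density was 3.17 times that of these chromosome arms in NC and 0.946 times in OE-KDM4A. Both lists held 11 members inside the stretches and flanks, of 501 NC and 1298 OE-KDM4A peaks. Below, the gene-free stretches include these flanks, which hold genes. In NC the density fell off with distance. It was 0.946 per Mb (0.687 to 1.27) in the first 250 bp, 0.638 (0.470 to 0.846) between 500 bp and 1 kb, 0.362 (0.267 to 0.480) between 1 and 2 kb and 0.235 (0.147 to 0.355) between 4 and 5 kb, where it met the mean of the arms, 0.241. The OE-KDM4A density was 0.903 (0.651 to 1.22) in the first 250 bp and 0.821 (0.648 to 1.03) between 4 and 5 kb, and the intervals of all its distance ranges overlapped.

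**Figure D1:**
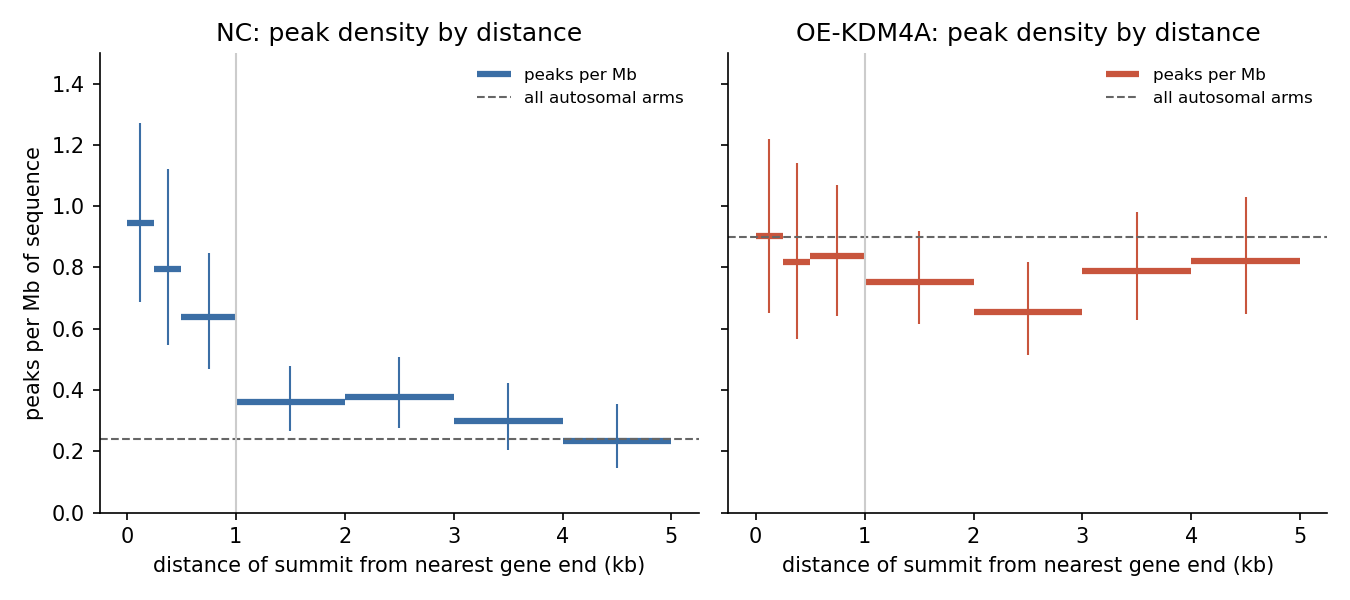
Peaks per Mb of sequence (vertical axis) by distance of the summit from the nearest gene end in kb (horizontal axis), outside the gene-free stretches, for NC (left) and OE-KDM4A (right). Thick bars are densities over the distance range they span, thin lines exact 95% Poisson intervals, the dashed line the density over all arms, and the grey line the 1 kb limit; NC declines from 0.946 to 0.235 per Mb and OE-KDM4A stays between 0.654 and 0.903.

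The control signal differed along with this. The background at the summit, which the peak caller takes from the input library, had a median of 1.25 fragments at NC members and 1.29 at the other NC peaks. In OE-KDM4A it was 1.56 at members and 0.905 at the others, the lowest value in that list, at which 50.4% of the other peaks but 30 of the 150 members stood. The part of the input in the difference between the lists was not tested.

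Protein-coding genes were the largest class at these peaks. In NC, 80 of 136 members (58.8%, 50.1 to 67.2) lay near an end of a protein-coding gene, and in OE-KDM4A 71 of 150 (47.3%, 39.1 to 55.6). LncRNA genes, which make long transcripts without a protein, were involved in 38 (27.9%) and 50 (33.3%), pseudogenes in 26 (19.1%) and 41 (27.3%), and small RNA genes in 11 (8.09%) and 5 (3.33%). A peak near ends of several classes counts in each, as 16 NC and 15 OE-KDM4A members do. Among all autosomal RefSeq genes the shares are 33.7% protein coding, 31.4% lncRNA, 27.7% pseudogene and 6.51% small RNA. The protein-coding intervals of both lists lie above the share of genes, but a gene counts in 1 class only. By length of near-end sequence the excess held for NC alone. Over all autosomes, NC had 1.15 peaks per Mb (0.914 to 1.43) at protein-coding ends, above its 0.759 at all ends. OE-KDM4A had 1.02 (0.799 to 1.29), an interval that covers its 0.837 at all ends.

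**Figure D2:**
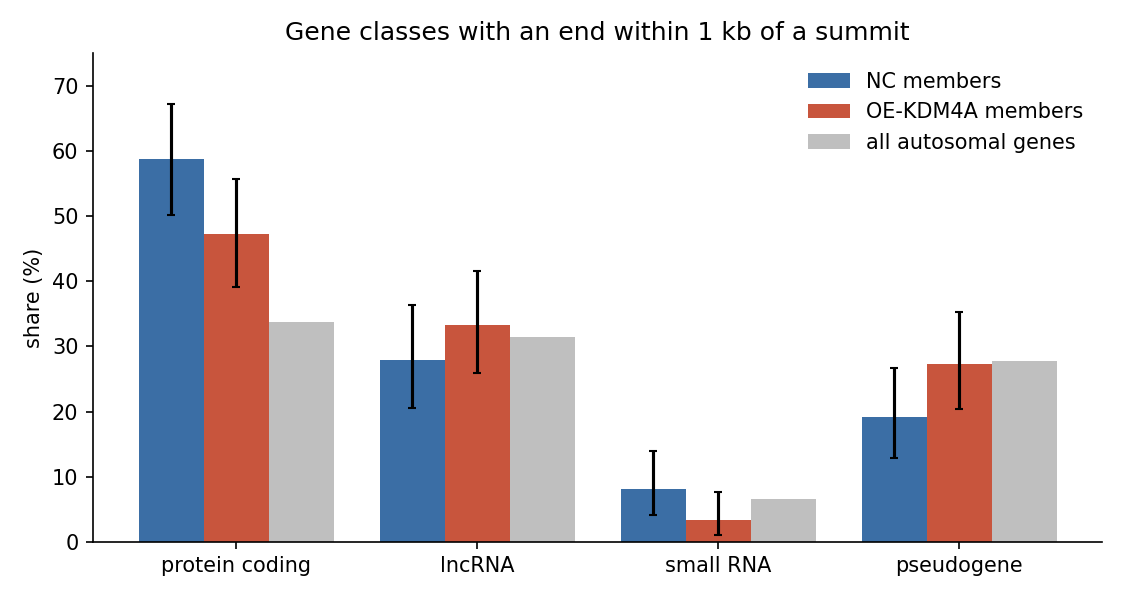
Share of members in percent (vertical axis) with an end of a gene of each class within 1 kb of the summit, for the 136 NC and 150 OE-KDM4A peaks, beside the share of each class among all autosomal RefSeq genes (grey). Error bars are exact 95% intervals, and a member can count in several classes but a gene in 1. Protein-coding ends reach 58.8% in NC and 47.3% in OE-KDM4A against 33.7% of genes.

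By sequence near the ends of each class, outside the gene-free stretches, NC had 1.21 peaks per Mb (0.962 to 1.51) at protein-coding, 0.589 (0.415 to 0.813) at lncRNA and 0.564 (0.349 to 0.863) at pseudogene ends. In OE-KDM4A the values were 1.03 (0.798 to 1.31), 0.749 (0.550 to 0.996) and 1.02 (0.723 to 1.40). In NC the protein-coding density thus lay above both others, while in OE-KDM4A the intervals of the 3 classes overlapped. The members touched 172 genes in NC, or 0.303% of the autosomal genes, and 170 in OE-KDM4A, or 0.300%. Of the protein-coding genes, 99 (0.518%) had an end near an NC summit and 75 (0.392%) near an OE-KDM4A summit. A single gene stood at 102 NC and 130 OE-KDM4A members, and several genes at 34 and 20.

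Where the strand of a gene could be read, most members lay at the start rather than at the 3′ end, although every gene has 1 of each. Strand was known for 48.8% of the autosomal genes (79.0% of the protein-coding, 62.6% of the lncRNA, 39.5% of the small RNA genes and none of the pseudogenes), which covered 83 NC and 80 OE-KDM4A members. In NC, 57 were at a start, 15 at a 3′ end and 11 within reach of both, so that 81.9% (72.0 to 89.5) were at a start. In OE-KDM4A the numbers were 51, 26 and 3, or 67.5% (56.1 to 77.6). At protein-coding genes the shares were 83.9% (72.3 to 92.0) and 74.1% (60.3 to 85.0), and at lncRNA genes 70.8% (48.9 to 87.4) and 64.7% (46.5 to 80.3). The intervals of the lists overlap in each class. Starts on both strands, as at divergent gene pairs, lay within 1 kb at 16 of the 68 NC and 11 of the 54 OE-KDM4A start members.

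The summits sat mostly just inside the gene. Downstream of the start lay 49 of the 68 NC start members (72.1%, 59.9 to 82.3) and 39 of the 54 in OE-KDM4A (72.2%, 58.4 to 83.5). Median positions were 179 bp (NC) and 152 bp (OE-KDM4A) downstream, and 28 and 27 of the summits lay within 250 bp. At protein-coding starts the downstream share was 78.8% and 77.5%. At lncRNA starts it was 7 of 17 and 11 of 22, with no such excess on the downstream side.

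**Figure D3:**
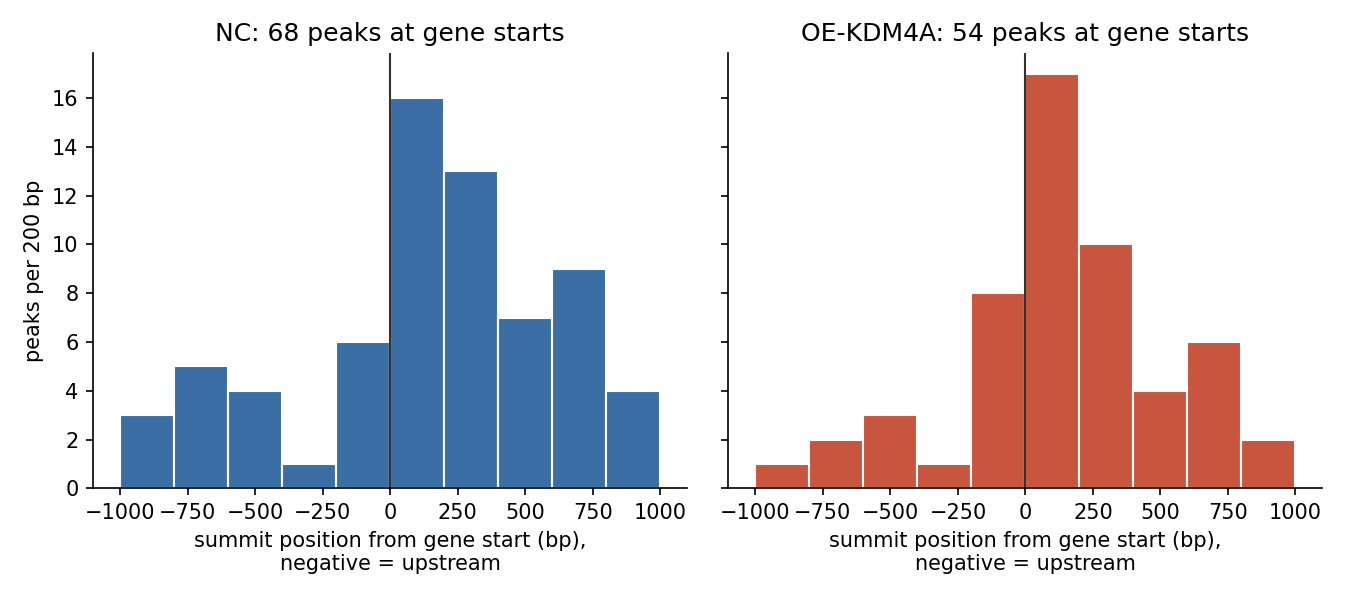
Number of peaks per 200 bp (vertical axis) by position of the summit from the gene start in bp (horizontal axis, negative upstream, positive inside the gene), for the 68 NC and 54 OE-KDM4A members at a start. The dark line marks the start; 49 NC and 39 OE-KDM4A summits lie to its right.

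Genes touched in both lists numbered 26, and ADCY1, IGF1R and KL were among them. The peak of ADCY1, an adenylyl cyclase that makes cyclic AMP, ran over the same bases in both lists (chr7:45574762-45574915), about 640 bp inside the gene, with a fold enrichment of 7.46 in NC and 13.2 in OE-KDM4A. Its pileup, the number of stacked ChIP fragments at the summit, was 16 and 40, and its −log10 q, the authors' significance after correction for many peaks, 8.86 and 32.6. IGF1R, the receptor of insulin-like growth factor 1, had a peak at chr15:98649289-98649428 (bounds in NC) with a fold of 11.3 in NC and 7.28 in OE-KDM4A, from 20 and 13 fragments. KL, which encodes klotho, a co-receptor of FGF23, had 10.1 and 5.48 at chr13:33016371-33016500, from 19 and 16 fragments. Of the 25 shared members KL was the one whose fold lay furthest lower in OE-KDM4A. ADCY1 was the one furthest higher apart from a peak at the subtelomeric pseudogene ROCK1P1. At both KL and ADCY1 the background, which comes from the input, was higher in OE-KDM4A. The KL fold thus differed more between the lists than its fragments did, and the part of the input in this was not tested.

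The Ras regulators RASA2, a GTPase-activating protein, and RASGRF1, an exchange factor, each carried a shared peak, at 11.6 and 7.43 for RASA2 and at 3.70 and 3.27 for RASGRF1. ANKLE2, which acts in rebuilding the nuclear envelope after mitosis, had 10.6 in NC and 9.04 in OE-KDM4A, from 20 and 24 fragments. The transcription factor gene YY1 shared a peak with its divergent lncRNA YY1-DT at 4.81 and 7.83, and the homeobox gene IRX2 with IRX2-DT at 6.39 and 6.37. HMGN1, a nucleosome-binding protein gene, had 6.15 and 5.97. FBLN1, which encodes the extracellular matrix protein fibulin 1, had 8.35 and 7.96, and ECE1, the endothelin-converting enzyme gene, 4.83 and 4.81. FBLN1, ECE1, HMGN1 and IRX2 are thus members at which the fold was nearly the same in both lists.

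The remaining shared protein-coding genes were PAPOLB, a testis poly(A) polymerase (6.71 in NC and 4.80 in OE-KDM4A), MEDAG (5.82 and 5.48), PGP, a phosphoglycolate phosphatase (4.72 and 5.20), ISM1, which encodes the secreted protein isthmin (4.69 and 4.33), SAMD4B (4.05 and 3.62) and D2HGDH, a dehydrogenase of 2-hydroxyglutarate (3.93 and 3.50). LOC115308161, a lncRNA gene, had 7.46 and 4.20, and the pseudogene UBE2Q2P13 6.66 and 4.20. Of the genes just named, SAMD4B and D2HGDH had the lowest folds, with 7 fragments in NC and 8 and 10 in OE-KDM4A.

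**Figure D4:**
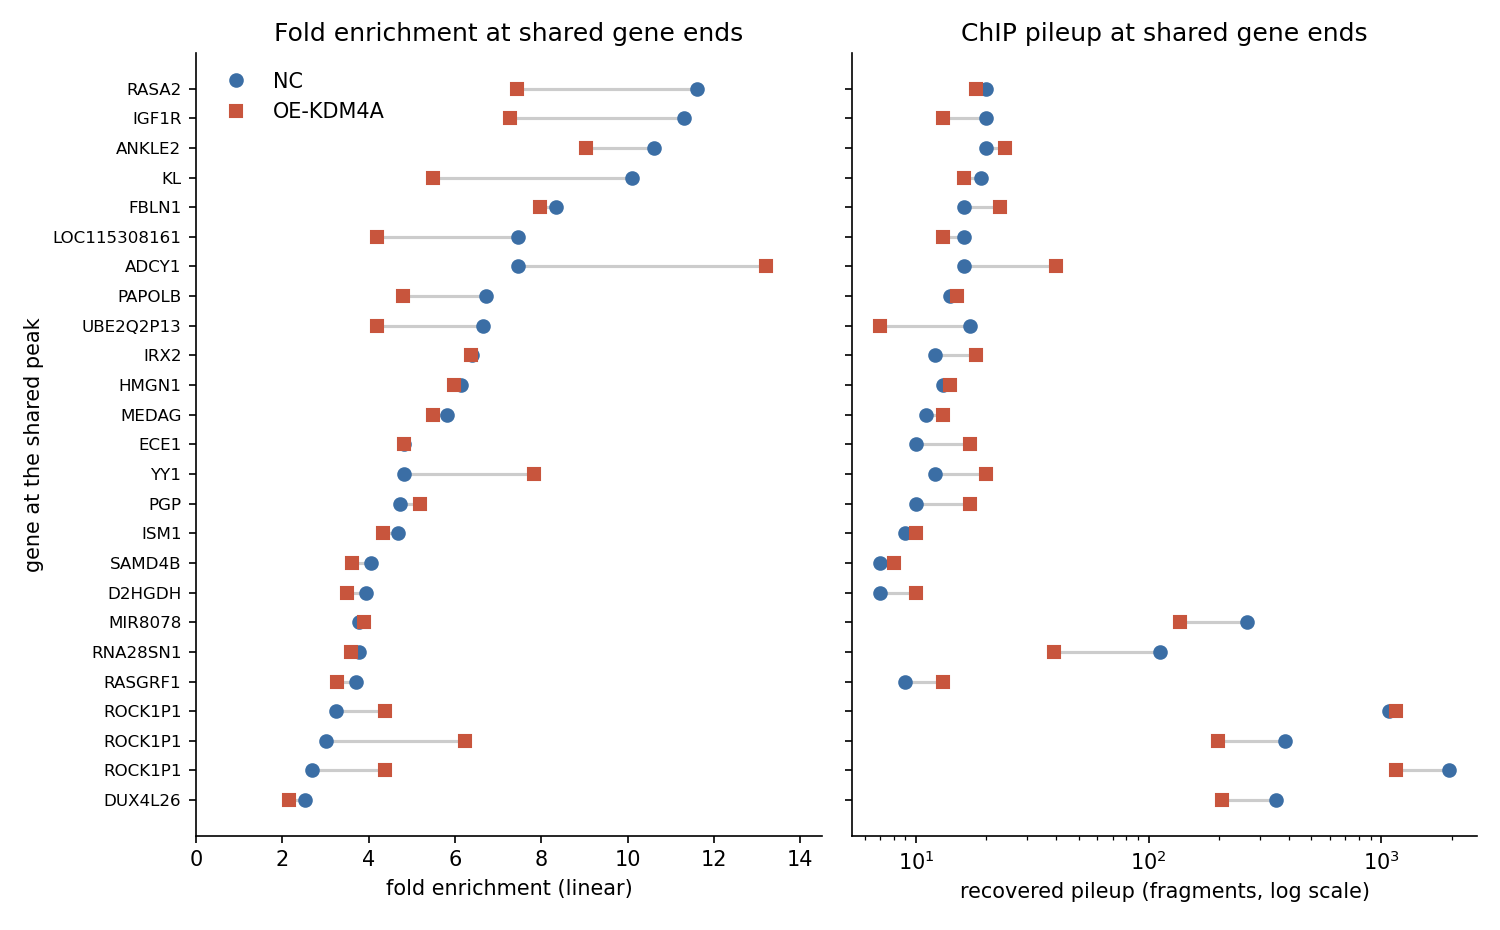
The 25 NC members that overlapped an OE-KDM4A peak, ordered by their NC fold, with the authors' fold enrichment on a linear axis (left) and the recovered ChIP pileup in fragments on a log axis (right). Circles are NC and squares OE-KDM4A, 1 library each; ADCY1 and YY1 lie higher in OE-KDM4A, KL and IGF1R higher in NC, and the subtelomeric ROCK1P1 and MIR8078 peaks stand at pileups of 136 or more.

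In all, 25 NC members (18.4%, 12.3 to 25.9) overlapped an OE-KDM4A peak by at least 1 bp, and 24 OE-KDM4A members (16.0%, 10.5 to 22.9) overlapped an NC peak, against 34.1% and 10.1% of all autosomal peaks. Every partner was itself near a gene end. The comparison turns on the centromeric regions, which hold most of the other shared NC peaks. Outside the gene-free stretches 24 of 125 NC members (19.2%, 12.7 to 27.2) were shared against 33 of 481 other peaks (6.86%, 4.77 to 9.50). In OE-KDM4A it was 23 of 139 (16.5%, 10.8 to 23.8) against 32 of 2123 (1.51%, 1.03 to 2.12). By gene, 26 were touched in both lists, or 15.1% of the NC and 15.3% of the OE-KDM4A genes, 18 of them protein coding.

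Most shared members lay at nearly the same position in both lists. In 13 of the 25 the first and the last base of the peak were identical in the 2 lists, which was so for 5 of the 352 other shared NC peaks, and for 4 of 33 outside the stretches. The summits were within 10 bp in 21, and in 13 the NC summit lay exactly 5 bp to the right of the OE-KDM4A summit on the chromosome. Why the bounds are identical and the offset repeats was not tested, and the reads at these regions were not examined. The fold was lower in OE-KDM4A at 18 of them and higher at 7, with a median log2 difference of -0.09. Pileup was higher in OE-KDM4A at 15 and lower at 10, and the background was higher at 17 and lower at 8. Median pileups were 16 in NC and 17 in OE-KDM4A, while median backgrounds were 1.28 and 2.11. Fold and pileup therefore differed in their more frequent direction, and the background differed with them. The 25 are not all separate sites. The 3 ROCK1P1 peaks and the MIR8078 peak, from a single stretch of chromosome 18, all had a higher fold and a lower background in OE-KDM4A. Of these, the NC peaks chr18:108066-108227 and chr18:108397-108540 overlap the same OE-KDM4A peak, chr18:108016-108739.

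Several strong members were found in NC only. The highest fold of all members, 43.6, with a −log10 q of 162, belonged to a peak at chr18:60018192-60018336, 316 bp from RNU6-567P, a pseudogene of the U6 spliceosomal RNA, and also near the pseudogene SINHCAFP2. It stood on 117 fragments over a background of 1.70, and the next NC member by fold, at the 3′ end of the lncRNA gene LOC105369998, had 14.9. NALF1, whose product is a subunit of the sodium leak channel NALCN, followed with 14.4 from 25 fragments, 548 bp inside the gene and 275 bp inside the predicted gene LOC124903206 on the other strand. SENP3, a SUMO protease gene, had 9.99 from 26 fragments at 22 bp before its start. SIPA1L2, of a family of Rap GTPase-activating proteins, had 9.86 and the ubiquitin ligase gene SIAH2, with its antisense gene SIAH2-AS1, 9.66. None of these 6 overlapped an OE-KDM4A peak, although several exceed the fold of most shared members. METTL26 was the only protein-coding gene with 2 members in a list, at chr16:633651-633788 and chr16:636160-636289, both in NC.

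Some NC genes with known roles in the endometrium or in development were picked after their values were seen. EMX2, a homeobox gene of the uterus, had a peak 951 bp inside its start with a fold of 6.59, JAG2, a Notch ligand gene, 6.66, the transcription factor gene FOXL2 4.83, EGR2 4.84, and INHBB, which encodes an inhibin and activin subunit, 4.13. COL1A1, a chain of type I collagen, had 3.95. From FOXL2 on, these rest on 8 to 10 fragments each, close to the lowest pileup at which any peak was called, which was 7 in both lists.

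In OE-KDM4A only, the strongest members lay at FAM230E (chr22:18733688-18733805), with a fold of 25.4, a −log10 q of 74.3 and 64 fragments, and at its relative FAM230F, with 9.56 and 68 fragments over a higher background of 6.22. The pseudogene POLD2P1 had 10.5. ARRDC2, an arrestin domain gene, had 10.2 from 33 fragments at 31 bp inside its start, and BRPF3, a subunit of histone acetyltransferase complexes, shared a peak of 9.83 with BRPF3-AS1. The chemokine gene CCL5 had 8.62 at 606 bp from an end. MLYCD, the malonyl-CoA decarboxylase gene, had 7.54 from 30 fragments. The lncRNA gene LOC124903817 near the start of chromosome 1 held 2 members, at 9.30 and 5.10. None of these overlapped an NC peak. Further OE-KDM4A genes, again picked after their values were seen, were the growth factor receptor gene FGFR1 (5.78), CDYL2, whose chromodomain binds methylated lysine 9 of histone H3 (5.46), the transcription factor gene CEBPB with CEBPB-AS1 (5.12) and IGFBP4, an IGF-binding protein gene (3.97). IGF1R is the shared member of the pathway that IGFBP4 regulates, and its fold in OE-KDM4A was 7.28.

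Members at genes with near-identical copies formed a group of their own, 15 in each list (11.0% of NC and 10.0% of OE-KDM4A members). The source copy of such reads cannot be told, and the set was chosen after seeing the data. ROCK1P1, a partial copy of the kinase gene ROCK1 at the tip of the short arm of chromosome 18, held 3 members in each list. The strongest of them was chr18:108397-108540 in NC and chr18:108016-108739 in OE-KDM4A, with 1952 and 1157 fragments, yet with folds of 2.69 and 4.39 over backgrounds of 725 and 263. MIR8078, which lies inside the same pseudogene, had 264 and 136 fragments and folds of 3.78 and 3.89. The strongest ROCK1P1 peak had the highest −log10 q of the members in either list, 302 in NC and 353 in OE-KDM4A, with a moderate fold.

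The DUX4-like genes, copies of the double homeobox gene of subtelomeric repeats, were touched at 5 of 47 in NC (DUX4L26, DUX4L42, DUX4L43, DUX4L44 and DUX4L50) and at 1 of 47 in OE-KDM4A (DUX4L26). These are 10.6% and 2.13% of the family, where 0.303% and 0.300% of all autosomal genes were touched. For DUX4L26 the pileups were 353 and 206 and the folds 2.52 and 2.16. Copies of the 45S ribosomal RNA repeat genes that are annotated on the short arm of chromosome 21 accounted for 5 NC members, at RNA45SN1, RNA28SN1, RNA45SN2 and MIR10396B, and for 2 in OE-KDM4A, at RNA28SN1 and at RNA28SN3 with RNA45SN3. The REXO1-like pseudogenes of chromosome 8 were touched in OE-KDM4A only, at 4 of 11 (36.4%), led by REXO1L2P with a fold of 10.0. So were USP17L22 and USP17L24 of the 29 USP17-like deubiquitinase genes (6.90%). Pseudogenes of small RNAs (U6 and other spliceosomal RNAs, 7SL, 7SK and Y RNA) stood at 6 NC and 12 OE-KDM4A members. That is 0.221% and 0.442% of the 2718 such genes, near the 0.303% and 0.300% of all autosomal genes. None but RNU6-567P reached a −log10 q of 6.

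Members inside the gene-free stretches include those in the 5 Mb flanks. Among them the strongest in NC were RNA45SN1 (−log10 q 50.5, 238 fragments), RNA28SN1 (26.4), the site of LINC00537, MIR4477B and DUX4L50 on chromosome 9 (11.6) and 2 at MIR10396B (10.5 and 9.93). In OE-KDM4A they were RNA28SN1 (7.91), RNA28SN3 (6.45), the paired starts of DST, a cytoskeletal linker gene, and BEND6 (6.18), LOC101927518 (4.57) and LOC105369714 (4.48). The RNA28SN1 peak was in both lists, with folds of 3.77 and 3.60.

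The promoters at start members were richer in G and C than promoters at large. Promoters here are the 300 bases from 250 before to 50 after the RefSeq start, known for 26246 autosomal genes, of which 23287 have that start at the end of the gene span. The median GC content was 69.7% (66.3 to 75.7) for the 79 promoters of NC start members and 73.3% (69.0 to 75.7) for the 64 of OE-KDM4A, against 58.3% for all autosomal promoters. These promoters outnumber the 68 and 54 start members, of which 16 and 11 have starts on both strands. Promoters of such pairs can overlap in sequence. Every promoter interval here and below counts them as separate and may be too narrow. Within protein-coding genes the medians were 72.0% (68.0 to 77.3) and 74.3% (70.7 to 77.7), against 63.0%. Where a member's summit itself lay in the promoter, the median was 78.7% (76.7 to 82.7) for 16 NC and 77.3% (55.0 to 81.3) for 11 OE-KDM4A promoters, and the latter interval covers the median of all OE-KDM4A start members. Start members are taken from the gene span, and the RefSeq start behind the promoter lay over 1 kb from the summit for 2 NC genes (MYLK and GRAP2) and 4 OE-KDM4A genes (KIF5C, PTPN2, URAD and LOC105379002). Without these promoters the medians were 71.0% for 77 NC and 73.5% for 60 OE-KDM4A promoters. With or without them, the protein-coding promoters of both lists lay above all protein-coding promoters, and the intervals of the lists overlap each other.

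A promoter was called CpG-rich at a GC content of at least 50% and an observed over expected number of CG pairs of at least 0.6, limits set after seeing the data. Of the protein-coding promoters at start members, 85.5% in NC (74.2 to 93.1) and 92.9% in OE-KDM4A (80.5 to 98.5) met this, against 64.0% of all protein-coding promoters. Without the promoters over 1 kb from the summit these shares were 88.3% (77.4 to 95.2) and 97.4% (86.5 to 99.9). Of the lncRNA promoters it was 58.8% (32.9 to 81.6) and 68.2% (45.1 to 86.1), against 24.2%. All 18 promoters of start members found in both lists were CpG-rich, with a median GC content of 77.7%, while 73.8% of those in NC only and 78.3% of those in OE-KDM4A only were. The 18 include pairs at a single peak, such as YY1 with YY1-DT and IRX2 with IRX2-DT. No genome sequence was used, so the GC content of the peaks themselves and of the other peaks was not measured here.

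**Figure D5:**
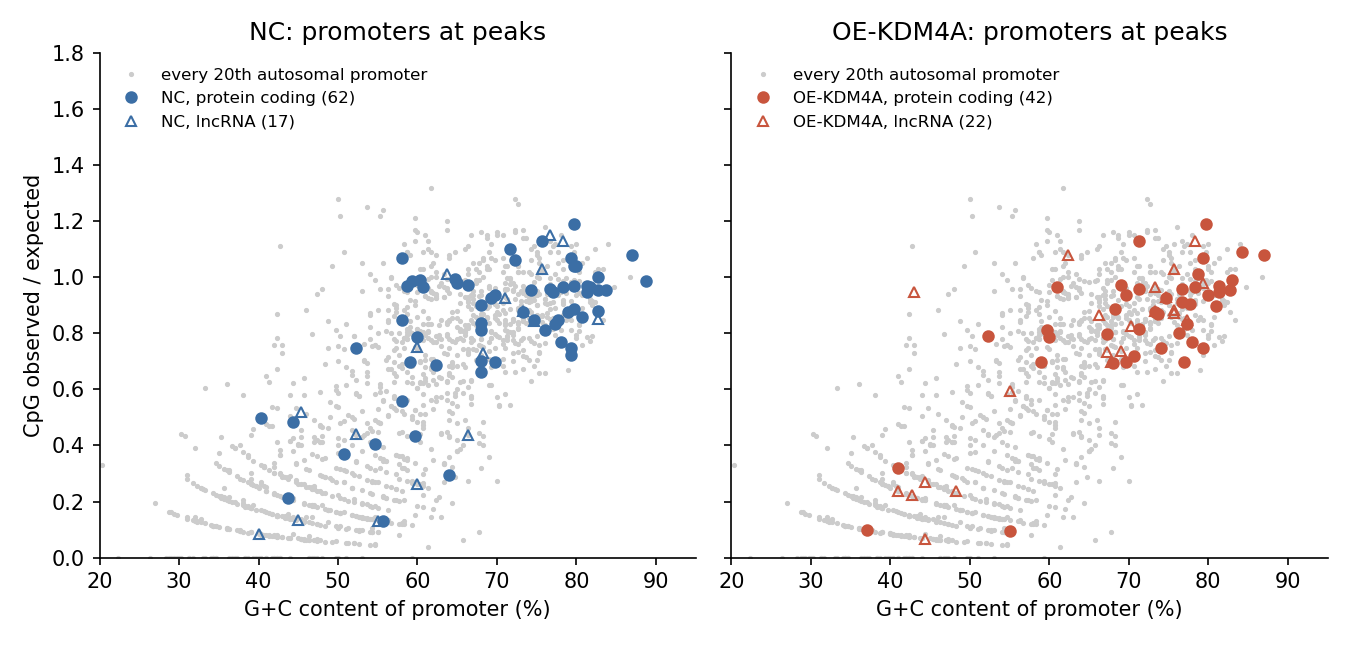
Ratio of observed to expected CG pairs (vertical axis) against GC content in percent (horizontal axis) of 300-base promoters at start members of NC (left) and OE-KDM4A (right). Filled circles are protein-coding genes (62 and 42) and open triangles lncRNA genes (17 and 22) over every 20th autosomal promoter in grey; most filled circles lie in the upper right, at medians of 72.0% and 74.3% GC.

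Short motifs were counted on both strands of the protein-coding promoters. The GC box GGGCGG was in 75.8% (63.3 to 85.8) of those at NC and 85.7% (71.5 to 94.6) of those at OE-KDM4A start members, against 58.9% of all protein-coding promoters. TATAAA, the core of the TATA box, was in 3.23% (0.393 to 11.2) and 2.38% (0.0603 to 12.6), against 9.71%. TGACG, part of the cyclic AMP response element, was in 43.5% (31.0 to 56.7) of the NC promoters and 21.4% (10.3 to 36.8) of the OE-KDM4A promoters, against 29.2%. CCAAT was in 30.6% and 31.0% (36.0% of all), CGGAAG, an ETS-type core, in 29.0% and 16.7% (25.8%), and AAGGTCA, the half-site bound by ERR receptors, in 2 of 62 (3.23%) and 0 of 42 (3.17% of all). A match is a run of letters and not a bound site, GC-rich motifs follow the base composition just described, and of these shares only the GC box in both lists and TGACG in NC had an interval that excludes that of all promoters. Without the promoters over 1 kb from the summit the same held, and TATAAA in NC, with 1 of 60 (1.67%, 0.0422 to 8.94), then lay below all promoters too. Overlapping promoters of gene pairs count separately in these shares, and the lower limit of TGACG in NC, 31.0%, is close to the 29.2% of all.

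The series title links KDM4A, the orphan nuclear receptor ERRγ and the cell cycle, so genes of these themes were counted. Of 57 autosomal cell cycle genes none had an end near an NC summit, and 1, CCNA2, near an OE-KDM4A summit, against 0.518% and 0.392% of all protein-coding genes. The peak at CCNA2, which encodes the S-phase and mitotic cyclin A2, ran over chr4:121823674-121823790, 196 bp inside the start, with a fold of 3.16 and a −log10 q of 1.43 from 12 fragments, one of the weakest members. It lies also 642 bp from the 3′ end of BBS7. None of 16 ERR and steroid receptor genes and none of 22 genes listed as H3K9 machinery had a member in either list. CDYL2, the OE-KDM4A member named above, was not on that list of 22. A gene count of 0 says that no peak was called there, not that the mark was absent. KDM4C, a demethylase gene related to KDM4A, is not a member, but the RefSeq start on which its promoter entry rests lies inside the gene span, and an OE-KDM4A summit lay 85 bp before it (chr9:6757875-6758000, fold 4.22, 9 fragments).

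Of the zinc finger genes, the gene family best known for H3K9me3, 1 of 669 had a member in NC (ZNF567; 0.149%, 0.00378 to 0.830) and 4 of 669 in OE-KDM4A (ZNF136, ZNF570, ZNF883 and the pseudogene ZNF75BP; 0.598%, 0.163 to 1.52). Both intervals cover the share of all autosomal genes, 0.303% in NC and 0.300% in OE-KDM4A. The 4 protein-coding ones all lay at the 3′ end. ZNF567 had a fold of 5.52 at 290 bp before its 3′ end, ZNF136 6.42 at 311 bp before it, ZNF883 4.72 at 260 bp before it, and ZNF570 4.20 at 146 bp beyond it. Protein-coding members at large were at the start in 83.9% (NC) and 74.1% (OE-KDM4A) of cases, so these 4 lie at the less frequent end, with pileups of 7 to 12.

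The counts of the other families are read against the same shares of all genes. Antisense lncRNA genes were at members for 2 of 1988 in NC (OSBPL10-AS1 and SIAH2-AS1) and 9 of 1988 in OE-KDM4A, with BRPF3-AS1, DLG1-AS1 and CEBPB-AS1 the strongest. Divergent lncRNA genes were at 4 and 7 of 582, IRX2-DT and YY1-DT in both lists. MicroRNA genes were at 6 of 1875 in NC (MIR10396B, MIR3187, MIR4477B, MIR6780A, MIR6804 and MIR8078) and 2 in OE-KDM4A (MIR4482 and MIR8078), transfer RNA genes at 1 of 439 in each (TRG-CCC2-2 in NC and TRR-TCT2-1 in OE-KDM4A), and solute carrier genes at 1 (SLC2A3) and 2 (SLC12A2 and SLC16A6) of 384. The one histone gene was H4C3, in NC, with a fold of 4.32. LINC genes numbered 3 and 4 of 2263, and ribosomal protein genes 1 and 3 of 2018, all of the latter pseudogenes. Olfactory receptor pseudogenes stood at 2 OE-KDM4A members and NDUFA3P1, a pseudogene of the NADH dehydrogenase family, at 1. The intervals of 2 of these family shares did not cover the share of all genes: ribosomal protein genes in NC, with 0.0496% (0.00125 to 0.276), and divergent lncRNA genes in OE-KDM4A, with 1.20% (0.485 to 2.46). The intervals were not corrected for the number of families and lists looked at. No protocadherin, keratin, snoRNA, proteasome or mitochondrial ribosomal protein gene was a member in either list.

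How members compared in strength with the other peaks differed by list and region. Their median −log10 q was 2.95 (2.63 to 3.51) in NC, where the other autosomal peaks had 3.86, and 4.06 (3.18 to 4.57) in OE-KDM4A, where the others had 3.58. Outside the gene-free stretches the members stood higher than the other peaks in both lists, at 2.90 against 2.25 in NC and 4.12 against 2.78 in OE-KDM4A. Median folds were 4.67 (4.44 to 4.83) and 4.72 (4.62 to 5.09), against 4.39 and 5.25 for the others, and median pileups 10 and 12. The median peak was 140 bp wide in NC and 130 bp in OE-KDM4A. Members shared with the other list had a median −log10 q of 8.86 (4.71 to 16.6) in NC, against 2.73 for those found in NC only, and of 6.91 (4.55 to 13.1) against 3.50 in OE-KDM4A.

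By chromosome, NC members were most frequent on chromosome 22, with 14, or 10.3% of the members against 2.35% of the genes, and 11 were on chromosome 3. OE-KDM4A members were most frequent on chromosomes 8 and 19, with 11 each, or 7.33% against 4.31% and 4.76% of the genes. On chromosome 19 near-end peaks made up 22.2% of the 45 NC and 26.2% of the 42 OE-KDM4A peaks. This chromosome has the most genes per Mb of the autosomes, 46.1. Its own share of bases near a gene end was not computed, so these shares have no baseline here. The members just inside the 1 kb limit were at TMEM121B (988 bp) in NC and LOC105369714 (993 bp) in OE-KDM4A, and the peaks just outside it at SS18 (1015 bp) and CCDC88A (1024 bp). Their folds were 6.31, 5.51, 6.48 and 3.98.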

How the data were processed

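The H3K9me3 peak lists of 1 NC and 1 OE-KDM4A library of Ishikawa cells were used. The submitters' processing notes name Trimmomatic, Bowtie 1.1.2, MACS2 2.1.0 and hg38, with no settings, and the input libraries entered only through the peak caller. The deposited fold enrichment, a ratio on a linear scale, is the authors' own. The deposited −log10 p and −log10 q values are the authors' own, and the deposited score is 10 times the −log10 q without decimals. Total reads were not used here, so depth is unknown.

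Duplicate lines for 1 region were merged, keeping the summit of highest −log10 q (1234 lines gave 1165 peaks in NC, 4187 gave 3785 in OE-KDM4A). Gene spans came from RefSeq (GRCh38.p14), and strand from its promoter and miRNA tables. Pileup and background were recovered from fold and p by the known MACS2 formulas, and matched the deposited −log10 p within 0.001 for 98.9% (NC) and 99.6% (OE-KDM4A) of peaks. Shares have exact (Clopper-Pearson) and densities exact Poisson 95% intervals, and medians order-statistic intervals. No test between conditions was run. The steps were tested on simulated data. Python 3.11.15, pandas 2.3.3, numpy 2.4.6, scipy 1.17.1 and matplotlib 3.10.9 were used.

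The members and gene lists were chosen with earlier results of these data known. The rule for named genes took, per list, the 10 members with the highest −log10 q and the 10 with the highest fold outside the gene-free stretches, shared members up to 20, the 5 strongest inside the stretches, protein-coding genes with 2 or more members, and members of the gene lists (up to 5 per larger family, though small counts are given in full). The multicopy set, the CpG-rich limits and the limits of the transfer RNA and solute carrier families to their gene class were set after seeing the data. Promoters overlapping a gene span are not printed.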

Additional observations from a re-analysis of the deposited data

How the results depend on the processing

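The share of autosomal peaks near a gene end was higher in NC than in OE-KDM4A in all 14 settings. Of 194 alternative values, 139 stayed within the interval of the reported value and 55 moved. Some of the latter follow from the construction of the alternative, as a median −log10 q rises when peaks of lower −log10 q are dropped. For the others the cause was not tested.

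Below, q5, q10 and f5 stand for peaks limited to a −log10 q of 5 or more, of 10 or more, and to a fold of 5 or more. The near-end share was 7.68% in NC and 2.36% in OE-KDM4A within 500 bp, 17.3% and 7.33% within 2 kb, 20.6% and 6.15% outside the gene-free stretches, 9.94% and 3.51% without LOC genes, 10.4% and 3.20% without pseudogenes, and 7.74% and 2.58% under q10. It was 9.41% in NC under q5 and 3.49% in OE-KDM4A under f5. The share at protein-coding ends was 72.7% and 56.0% without LOC genes and 69.6% and 62.3% without pseudogenes. In NC it was 76.1% under f5 and 47.8% under q10, and in OE-KDM4A 56.0% within 500 bp, 59.3% under q5 and 58.1% with both lists at the length of NC. The share at starts was 89.7% and 83.3% under q5, and 92.3% and 100% under q10. In OE-KDM4A it was 80.4% within 500 bp, where NC had 80.8%, and 84.6% at equal list length, where NC had 81.9%. OE-KDM4A thus stood above NC in that share at equal length and under q10, and the order of the lists is not firm.

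The shared part was 32.6% and 24.1% under q5, 30.4% and 31.6% under q10, and 11.0% and 32.6% at equal list length, and in OE-KDM4A 23.8% within 500 bp. The median −log10 q was 10.2 and 7.85 under q5, 17.6 and 19.1 under q10, 6.70 and 6.07 under f5, and 8.88 in OE-KDM4A at equal length. The median fold was 6.66 and 6.42, 8.35 and 8.62, and 6.49 and 5.87 in the same 3 settings, and 6.82 in OE-KDM4A at equal length. The median GC content was 78.0% and 77.3% for the 17 and 12 promoters holding any summit (SCNN1B in NC and KDM4C in OE-KDM4A are not members), 75.8% in NC under q10, and 76.3% in OE-KDM4A under q5 and 76.0% at equal length. Leaving out the multicopy genes, or the promoters over 1 kb from the summit, both chosen after seeing the data, moved no value past its interval.

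No paired analysis was possible because each condition has 1 library. Strand known for under 50% of genes, weak members of 7 to 12 fragments and unknown depth limit all counts.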
